A study of Homo sapiens with 6 samples.

Results

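The interleukin and chemokine genes and the genes of their receptors were read out in H2452 cells, an established human pleural mesothelioma line, after delivery of a scrambled control sgRNA (sgCtrl) or an NF2-targeting sgRNA (sgNF2-1). Protein-coding genes were taken whose symbol begins with IL, CXCL, CCL, CXCR or CCR and a number. This gave 142 of the 58735 genes of the count table, and the 52 with at least 10 counts in at least 1 of the 6 libraries are the members described here. Of the other 90 genes, 50 had 0 counts in every library and 40 had between 1 and 9. The count level therefore chose the members. CCL4L2 and IL1RN, with a highest count of 10, and CCL3L1, with 11, lay just inside the limit. CCL26, with a highest count of 7, and IL17C and CCR1, with 6, lay just outside it.

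The 3 sgCtrl and 3 sgNF2-1 libraries are the whole series, and all come from the same line grown in RPMI-1640 with fetal bovine serum and with no further treatment named. Both groups carried the same Lenti-Cas9-sgRNA vector with an mCherry marker, driven by the SFFV promoter, and mCherry-positive cells were sorted as a population. The study's methods call its replicates biological, without saying whether these libraries came from separate cultures. P-values therefore set the group difference against the spread between these libraries only. Libraries held between 14782423 and 17416463 counted reads. NF2 had 1162, 1197 and 1025 counts in sgCtrl and 692, 802 and 590 in sgNF2-1, with a log2 fold change of -0.69 (SE 0.10, edgeR adjusted p = 7.9e-06). Of 12 mesothelial markers, 9 had more than 10 counts, among them MSLN, WT1, CALB2 and 4 keratins, while ITLN1 was at 0. Of these 9, KRT7 (log2 fold change 1.20), MSLN (0.66) and KRT18 (0.28) were higher in sgNF2-1 and PDPN (-1.28), WT1 (-1.04) and KRT19 (-0.94) lower, and the summed level of the 12 ran from 3480 to 3930 CPM in sgCtrl and from 3370 to 4130 CPM in sgNF2-1. The 6 endothelial markers summed to 11.3 to 13.2 CPM in sgCtrl and 11.7 to 14.0 CPM in sgNF2-1, with PECAM1 lower (-2.28) and TIE1 higher (1.25). Of 15 leukocyte markers, 12 had at most 10 counts in every library, and PTPRC, CD2, MS4A1 and TYROBP were at 0, whereas CD14 had 2144 to 2245 counts in sgCtrl and 987 to 1165 in sgNF2-1. The fibroblast markers DCN and LUM were at 0, and the summed level of the 8 fibroblast markers ran from 187 to 227 CPM in sgCtrl and from 66.5 to 70.4 CPM in sgNF2-1, led by COL1A2. The part of these shifts in the results was not tested.

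Interleukins and chemokines are small secreted proteins by which cells signal to each other. Interleukins of the IL-1 family act through receptors that recruit MYD88 and IRAK kinases to NF-κB, whereas those of the IL-6, IL-10 and common gamma chain families act through JAK kinases and STAT factors, which SOCS proteins hold in check. Chemokines bind G-protein-coupled receptors and draw leukocytes along their gradient. Mesothelial cells and mesotheliomas are known sources of IL-6, CXCL8 and CCL2.

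Of the 52 members, 44 passed edgeR's expression filter and were tested between the groups. At an adjusted p under 0.05, 8 members were higher in sgNF2-1, or 18.2% of those tested, beside 17.7% of all 14179 tested genes. Another 16 members were lower, or 36.4%, beside 16.6% of all tested genes, and 20 were not called. With a log2 fold change beyond 0.5 as a second condition, 7 members were higher and 9 lower, where 8.42% and 9.32% of all genes passed. By role, among 20 tested ligands, 6 were higher and 5 lower, with a median log2 fold change of -0.13. Among 21 tested receptor genes, 1 was higher and 10 were lower, with a median of -0.36. The median over all 44 was -0.31 and over all tested genes 0.00. The groups did not overlap for 25 of the 44 members (56.8%, beside 45.3% of all tested genes). In these bulk libraries, fewer cells expressing a gene and less RNA per cell cannot be told apart. These shares are descriptions of members chosen by level and by name. A single tested member, CXCL12, reached 10 counts in only 1 of the groups. Of the other called members, IL33 reached 10 counts in 3 sgCtrl and 2 sgNF2-1 libraries, and IL1A in 2 and 3. The group in which each was high thus helped it pass the filter. The call of 14 of the 24 called members was kept in every alternative that gave a value for it.

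**Figure D1:**
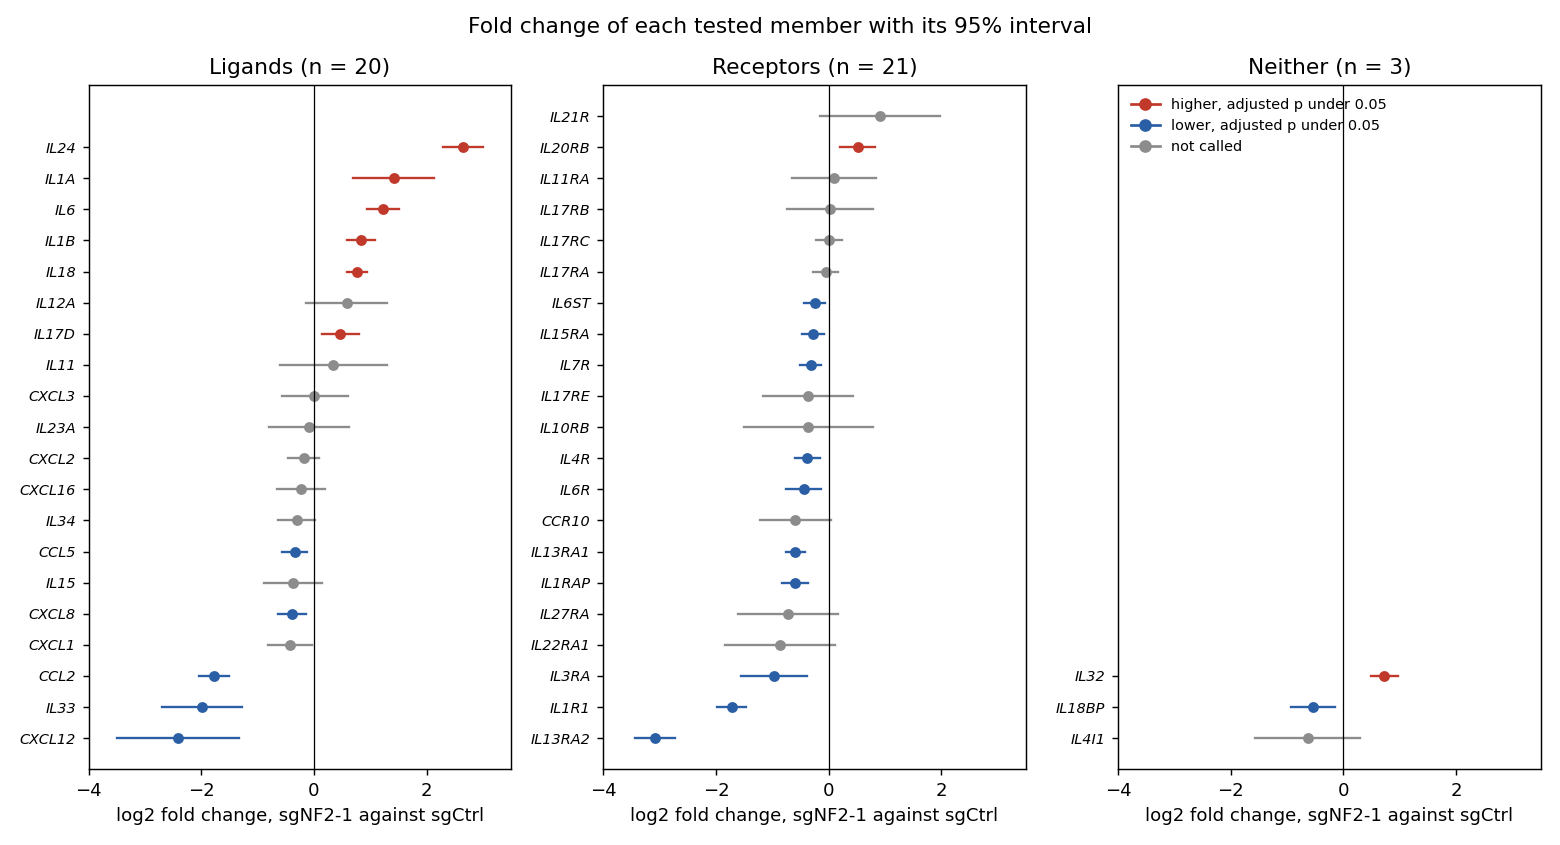
Log2 fold change of the 44 tested members, sgNF2-1 against sgCtrl (x axis), by gene (y axis) in panels for ligands, receptors and genes that are neither. Points are edgeR estimates and lines their 95% intervals, red for the 8 higher, blue for the 16 lower and grey for the 20 not called. IL24 at 2.65 and IL13RA2 at -3.08 lie at the ends.

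Promoter sequence was looked at because several of the ligands that moved are classic targets of NF-κB and C/EBP factors. The set of RefSeq promoter windows (GRCh38.p14) used here held 40 of the 52 members. The 250 bases before the RefSeq start were searched on both strands. The first 3 sequences are those of higher ligands, IL24 with the largest rise and IL6 and IL1B as the textbook inflammatory interleukins. Capitals mark the matches to the NF-κB motif, GGGAN followed directly by TTTCC, and the C/EBP motif TTNNGNAA.
IL24, chr1:206897193-206897442, plus strand: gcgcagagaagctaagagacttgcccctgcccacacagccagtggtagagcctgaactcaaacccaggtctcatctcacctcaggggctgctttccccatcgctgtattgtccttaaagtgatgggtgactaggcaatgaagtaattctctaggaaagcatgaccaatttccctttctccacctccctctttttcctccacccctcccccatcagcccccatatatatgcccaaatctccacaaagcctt
IL6, chr7:22726950-22727199, plus strand: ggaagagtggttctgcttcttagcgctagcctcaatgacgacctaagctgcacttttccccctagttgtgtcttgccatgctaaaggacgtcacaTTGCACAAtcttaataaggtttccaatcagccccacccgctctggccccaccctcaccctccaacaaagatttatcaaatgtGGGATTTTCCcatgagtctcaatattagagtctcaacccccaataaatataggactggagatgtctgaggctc
IL1B, chr2:112836780-112837029, minus strand: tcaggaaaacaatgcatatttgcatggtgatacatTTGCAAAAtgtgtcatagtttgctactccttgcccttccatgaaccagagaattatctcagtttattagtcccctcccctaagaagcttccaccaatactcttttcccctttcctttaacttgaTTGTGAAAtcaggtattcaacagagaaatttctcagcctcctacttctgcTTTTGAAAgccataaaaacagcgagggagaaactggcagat
The IL6 window held an NF-κB match 73 to 64 bases before the start and a C/EBP match 155 to 148 bases before it. The IL1B window held 3 C/EBP matches, the nearest 41 to 34 bases before the start, and the IL24 window held neither set of letters.

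The longer NF-κB motif was found in 6 of the 40 member windows (15%) and in 0.645% of the 27305 genes with a window. Besides IL6 these were CXCL1, CXCL2, CXCL3, IL27RA and IL32, shown with 20 bases on either side of the match in capitals.
CXCL1, chr4:73869294-73869343, plus strand: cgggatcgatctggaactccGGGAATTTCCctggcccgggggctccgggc
CXCL2, chr4:74099244-74099293, minus strand: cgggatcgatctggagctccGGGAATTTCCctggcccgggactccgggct
CXCL3, chr4:74038739-74038788, minus strand: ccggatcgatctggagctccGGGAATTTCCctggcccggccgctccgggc
IL27RA, chr19:14031674-14031723, plus strand: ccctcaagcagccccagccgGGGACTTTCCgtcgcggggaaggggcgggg
IL32, chr16:3065284-3065333, plus strand: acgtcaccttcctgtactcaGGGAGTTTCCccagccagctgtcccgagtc
The 10 letters of the match were the same in CXCL1, CXCL2 and CXCL3, which are neighbouring genes of 1 chemokine cluster, so these 3 windows are not separate cases. Members with these letters did not move alike. IL6 and IL32 were higher in sgNF2-1, while CXCL1, CXCL2, CXCL3 and IL27RA were not called. Of the members with a window, 2 of 7 higher and 0 of 13 lower ones held the motif, beside 0.645% of all genes. The higher member IL18 and the lower members CCL2, CCL5 and IL13RA2 had no window and were not searched. A link between these few matches and the direction of change was not tested. The shorter NF-κB motif GGGNNTTCC was in 6 of 40 member windows (15%) and in 7.01% of all genes, and its matches did not overlap those of the longer motif. It was in 1 of the 7 higher and 1 of the 13 lower members with a window. The AP-1 motif TGANTCA was in 9 windows (22.5%, beside 8.06%), the TEAD motif GGAATG in 7 (17.5%, beside 14.3%) and the C/EBP motif in 17 (42.5%, beside 38.1%). Of the 7 higher and 13 lower members with a window, the AP-1 motif was in 2 and 2, the TEAD motif in 2 and 1 and the C/EBP motif in 4 and 5. A match is a string of letters and no measured binding site.

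IL24 showed the largest rise of the members and stood at position 14 of the 14179 tested genes ranked from the highest log2 fold change. IL24 (ENSG00000162892, chr1:206897443-206904139) encodes an IL-10 family cytokine that signals through IL20RB paired with IL20RA or IL22RA1. Its counts were 42, 35 and 43 in sgCtrl replicates 1 to 3 and 302, 241 and 217 in sgNF2-1 replicates 1 to 3. The lowest sgNF2-1 library thus lay far above the highest sgCtrl library. As CPM, the count relative to the TMM-scaled library total, the level was 2.54 ± 0.366 in sgCtrl and 16.0 ± 1.02 in sgNF2-1 (n = 3 each, SD). The change was 6.3-fold, or 2.65 in log2 (SE 0.17, adjusted p = 1.8e-11, edgeR's quasi-likelihood test with Benjamini-Hochberg adjustment, as for all adjusted p-values here). Its neighbours on chromosome 1, IL10, IL19 and IL20, which encode cytokines of the same family, had at most 1 count in any library.

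The receptor chain that IL-24 shares with IL-19 and IL-20, IL20RB, was the only receptor gene called higher. It had 128, 183 and 156 counts in sgCtrl and 256, 240 and 174 in sgNF2-1. Replicate 2 of sgCtrl exceeded replicate 3 of sgNF2-1 in counts, but as CPM the groups did not overlap, at 9.85 ± 1.56 and 14.1 ± 1.71 (n = 3 each, SD). The log2 fold change was 0.52 (SE 0.15, adjusted p = 0.0088), and without sgCtrl replicate 1 it was 0.40 with an adjusted p of 0.060. IL20RB overlaps NCK1 on the same strand, a gene with a mean of 811 counts, so its reads are less certain. Of the partner chains, IL20RA was at 0 in all libraries, and IL22RA1, with 5 to 28 counts, was not called (log2 fold change -0.86, 95% interval -1.84 to 0.11). IL10RB, the shared chain of the IL-10 and IL-22 receptors, ranged from 1 to 21 counts and was not called (-0.36, interval -1.5 to 0.78).

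Within the IL-1 family, 3 ligands were higher and the alarmin IL33 was lower, while both tested receptor chains were lower. IL1A encodes IL-1α, which is active in its uncleaved form. Its counts were 7, 45 and 49 in sgCtrl and 88, 111 and 71 in sgNF2-1. The sgCtrl libraries disagreed among themselves, with replicate 1 far below the other two, yet all sgNF2-1 libraries were above them. The level went from 2.14 ± 1.49 to 5.73 ± 1.27 CPM (n = 3 each, SD), with a log2 fold change of 1.42 (SE 0.35, adjusted p = 0.0024). Without sgCtrl replicate 1 the log2 fold change was 0.94 (adjusted p = 0.0057), and DESeq2 gave 1.42 with an adjusted p of 0.13.

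IL1B encodes IL-1β, which needs cleavage by an inflammasome before release. It had 203, 180 and 199 counts in sgCtrl and 403, 325 and 313 in sgNF2-1, with a clear gap between the groups. The level rose from 12.3 ± 1.18 CPM in sgCtrl to 21.98 ± 0.923 CPM in sgNF2-1 (n = 3 each, SD), with a log2 fold change of 0.84 (SE 0.12, adjusted p = 9.9e-06). IL18 encodes another interleukin of this kind and had 1563, 1586 and 1735 counts in sgCtrl and 3255, 2592 and 2482 in sgNF2-1. Every sgNF2-1 library was well above every sgCtrl library. Its level rose from 103.4 ± 9.58 CPM in sgCtrl to 175.7 ± 8.61 CPM in sgNF2-1, with a log2 fold change of 0.77 (SE 0.09, adjusted p = 1.4e-07).

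IL33 (chr9:6215786-6257983), a nuclear cytokine released by damaged cells, moved the other way. Its counts were 35, 67 and 65 in sgCtrl and 19, 14 and 9 in sgNF2-1. The libraries did not overlap, although sgCtrl replicate 1 was the lowest of its group. The level fell from 3.53 ± 1.14 CPM in sgCtrl to 0.873 ± 0.226 CPM in sgNF2-1 (n = 3 each, SD), with a log2 fold change of -1.99 (SE 0.35, adjusted p = 6.8e-05). IL1RN, which encodes the antagonist of the IL-1 receptor, had 3, 2 and 1 counts in sgCtrl and 10, 3 and 7 in sgNF2-1 and was too low to be tested.

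On the receptor side, IL1R1 (ENSG00000115594, chr2:102064544-102179874) encodes the chain that binds IL-1α and IL-1β. It had 605, 774 and 621 counts in sgCtrl and 266, 183 and 160 in sgNF2-1, so the groups were far apart. The level fell from 42.2 ± 4.51 CPM in sgCtrl to 12.7 ± 2.09 CPM in sgNF2-1 (n = 3 each, SD) and was 30.2% of sgCtrl, with a log2 fold change of -1.72 (SE 0.13, adjusted p = 1.3e-10). Its co-receptor IL1RAP, which the IL-33 receptor also uses, had 467, 512 and 466 counts in sgCtrl and 363, 341 and 253 in sgNF2-1. Every sgNF2-1 library was below every sgCtrl library, with 30.5 ± 0.800 against 20.2 ± 2.20 CPM and a log2 fold change of -0.60 (SE 0.11, adjusted p = 0.0002).

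The ligands of this family were thus measured beside few of their receptors. The decoy receptor IL1R2, the IL-33 receptor chain IL1RL1 and the IL-18 receptor chain IL18RAP had 0 counts in all libraries, which allows up to 3 counts over the 6 libraries together by counting error alone. IL18R1 had at most 3 counts. IL18BP, a secreted protein that captures IL-18, had 111, 125 and 86 counts in sgCtrl and 86, 79 and 57 in sgNF2-1. The counts of 1 sgCtrl and 1 sgNF2-1 library were equal, but as CPM the groups did not overlap (6.78 ± 1.00 and 4.67 ± 0.589, n = 3 each, SD). The log2 fold change was -0.53 (SE 0.19, adjusted p = 0.033). This call was lost when any of 4 libraries was left out (sgCtrl replicate 1 or 2, sgNF2-1 replicate 1 or 3), with adjusted p-values of 0.083, 0.15, 0.063 and 0.11. IL18BP overlaps NUMA1 on the opposite strand, with a mean of 1935 counts, and the strand setting of the counting is not given in the sources used here.

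IL6 (ENSG00000136244, chr7:22725884-22732002) encodes the founding member of the gp130 cytokines. Its counts were 113, 133 and 141 in sgCtrl and 370, 294 and 250 in sgNF2-1. The groups were separated by a wide gap. The level rose from 8.19 ± 1.06 CPM in sgCtrl to 19.2 ± 1.74 CPM in sgNF2-1 (n = 3 each, SD), with a log2 fold change of 1.23 (SE 0.14, adjusted p = 2e-07). IL6 overlaps STEAP1B, which lies on the opposite strand with a mean of 86 counts. IL11, the other tested ligand of the family, had 8 to 27 counts and was not called (log2 fold change 0.34, 95% interval -0.60 to 1.29).

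None of the 4 tested receptor genes of this family was called higher. IL6R, the IL-6 binding chain, fell from 11.9 ± 0.504 CPM in sgCtrl to 8.78 ± 1.27 CPM in sgNF2-1 (n = 3 each, SD), with a log2 fold change of -0.44 (adjusted p = 0.024). Its call was lost without sgCtrl replicate 1 or 2 or sgNF2-1 replicate 1 (adjusted p = 0.056, 0.078 and 0.14). IL6ST, which encodes gp130, the signalling chain of the whole family, had 6521, 8144 and 8257 counts in sgCtrl and 7202, 6696 and 5427 in sgNF2-1. The groups overlapped, both in counts and as CPM (484.7 ± 65.9 and 408.1 ± 26.4). The log2 fold change was -0.25 (adjusted p = 0.041). It was -0.15 with an adjusted p of 0.20 without sgCtrl replicate 3, and the call was also lost without sgCtrl replicate 2 or sgNF2-1 replicate 1 or 3 (adjusted p = 0.12, 0.11 and 0.14). IL11RA and IL27RA were not called, at log2 fold changes of 0.10 (95% interval -0.65 to 0.85) and -0.72 (-1.60 to 0.16).

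IL13RA2 fell furthest of the members, and among all 14179 tested genes it stood at position 10 from the lowest log2 fold change. IL13RA2 (ENSG00000123496, chrX:115003975-115019977) encodes a high-affinity IL-13 receptor with a short cytoplasmic tail that is regarded mainly as a decoy. Its counts were 316, 297 and 339 in sgCtrl and 36, 38 and 38 in sgNF2-1. The libraries of each group lay close together and the groups far apart. The level was 20.2 ± 2.13 CPM in sgCtrl and 2.39 ± 0.317 CPM in sgNF2-1 (n = 3 each, SD), 8.45-fold lower, with a log2 fold change of -3.08 (SE 0.17, adjusted p = 7.4e-13).

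IL13RA1 (chrX:118727572-118794539) and IL4R encode the 2 chains of the signalling receptor for IL-4 and IL-13 on cells outside the blood. IL13RA1 had 1890, 1989 and 1977 counts in sgCtrl and 1536, 1217 and 1141 in sgNF2-1. All sgNF2-1 libraries were lower, at 82.1 ± 4.55 against 123.8 ± 5.66 CPM (n = 3 each, SD), with a log2 fold change of -0.59 (SE 0.08, adjusted p = 4.4e-06). IL4R fell from 35.9 ± 2.97 CPM in sgCtrl to 27.6 ± 1.57 CPM in sgNF2-1, with a log2 fold change of -0.38 (adjusted p = 0.0067). The 3 receptor genes were therefore lower to unequal degrees, and their cytokines were at the limit of the counts, with at most 2 counts for IL13 and 3 for IL4. The neighbour of IL4R on chromosome 16, IL21R, had 4 to 19 counts and was not called (log2 fold change 0.92, 95% interval -0.15 to 1.98).

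Other receptor genes of the blood cytokines were lower by smaller steps. IL3RA, the α chain of the IL-3 receptor, had 50 counts in each sgCtrl library and 26, 24 and 26 in sgNF2-1, with no overlap. The level fell from 3.17 ± 0.124 CPM in sgCtrl to 1.62 ± 0.183 CPM in sgNF2-1 (n = 3 each, SD), with a log2 fold change of -0.97 (SE 0.28, adjusted p = 0.0087). The shared β chain of that receptor, CSF2RB, was at 0 in all libraries. IL7R, the α chain for IL-7, had 2187, 2538 and 2591 counts in sgCtrl and 2424, 1854 and 1631 in sgNF2-1. As CPM its groups just failed to overlap (154.7 ± 16.0 and 124.1 ± 12.1), with a log2 fold change of -0.32 (adjusted p = 0.0087, and 0.052 without sgCtrl replicate 3). Its ligand gene IL7 had at most 6 counts and the common γ chain gene IL2RG at most 2. IL15RA, the α chain for IL-15, fell from 44.1 ± 2.29 CPM in sgCtrl to 36.5 ± 1.12 CPM in sgNF2-1 (log2 fold change -0.27, adjusted p = 0.029). That call was lost without sgCtrl replicate 1 or 3 or sgNF2-1 replicate 1 or 2 (adjusted p = 0.098, 0.058, 0.11 and 0.062) and with no expression filter (0.085). IL15 itself, with 48 to 83 counts, was not called (-0.37, 95% interval -0.88 to 0.14).

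**Figure D2:**
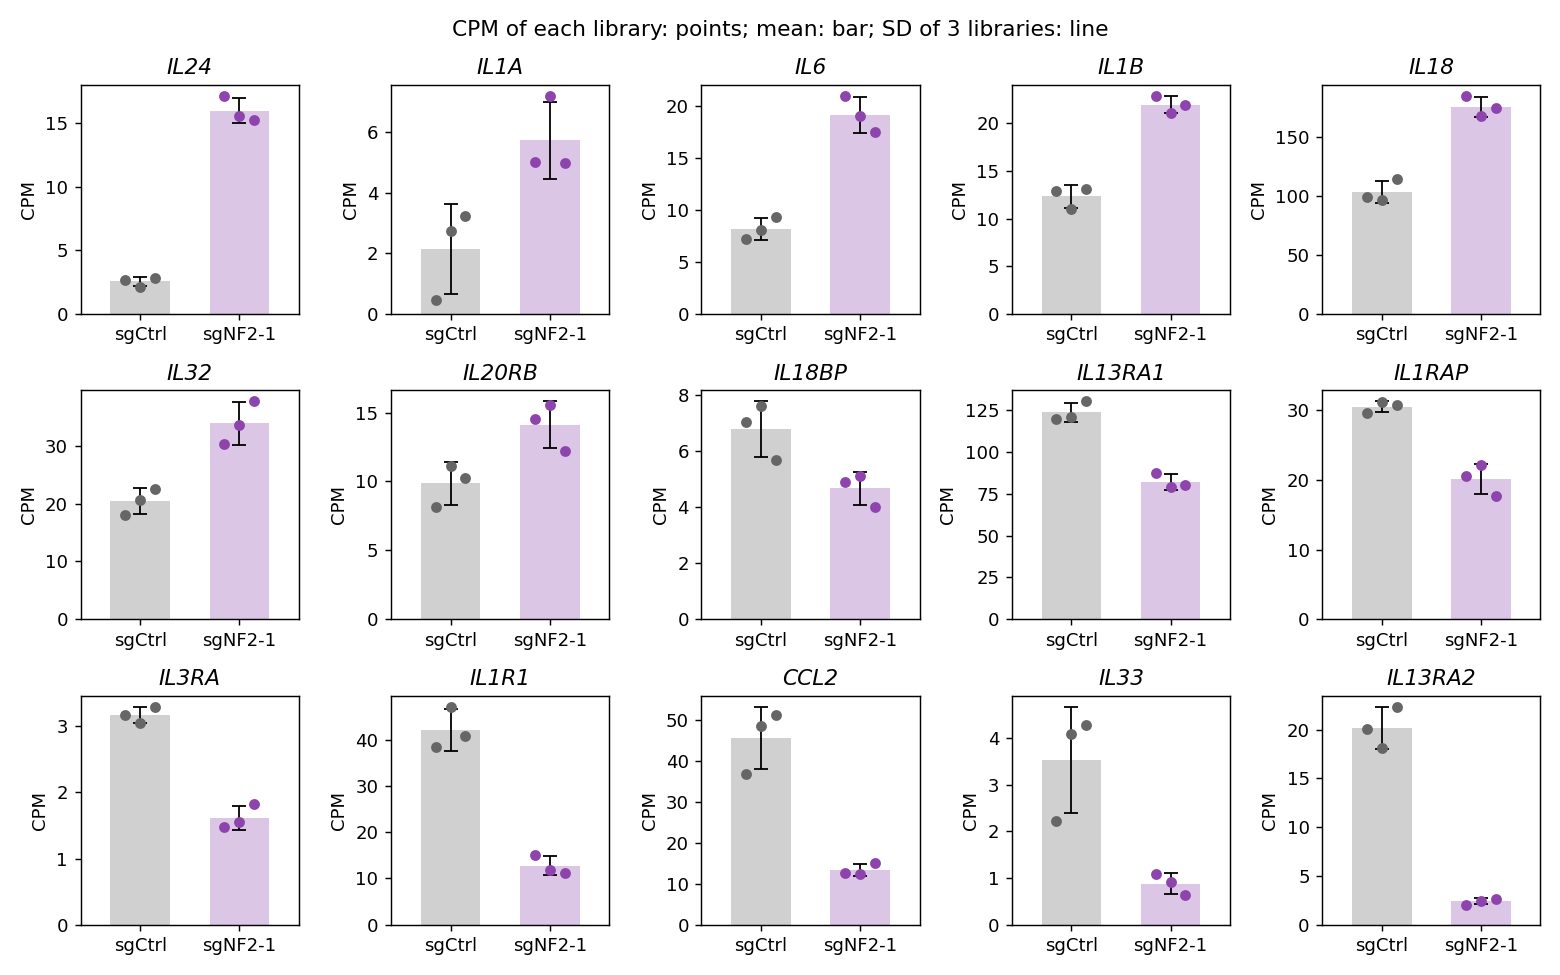
CPM (y axis, from 0, a separate scale per panel) of the 15 members with an adjusted p under 0.05, a log2 fold change beyond 0.5 and a mean of at least 1 CPM, in sgCtrl and sgNF2-1 (x axis). Points are libraries, bars means and lines the SD of 3 libraries. The 7 higher members run from IL24 to IL20RB and the 8 lower ones from IL18BP to IL13RA2, and IL1A and IL33 show 1 sgCtrl library below the other two.

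CCL2 fell the most among the chemokines with a mean of at least 1 CPM. CCL2 (ENSG00000108691, chr17:34255218-34257203) encodes a chemokine that draws monocytes through the receptor CCR2. It had 582, 798 and 779 counts in sgCtrl and 224, 191 and 215 in sgNF2-1. The lowest sgCtrl library exceeded the highest sgNF2-1 library by a wide margin. The level fell from 45.6 ± 7.66 CPM in sgCtrl to 13.4 ± 1.48 CPM in sgNF2-1 (n = 3 each, SD), 3.41-fold lower, with a log2 fold change of -1.77 (SE 0.13, adjusted p = 1.2e-10). The neighbouring genes CCL7, CCL8, CCL11, CCL13 and CCL1 on chromosome 17 had at most 2 counts.

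CCL5, which attracts T cells and monocytes, had 487, 516 and 569 counts in sgCtrl and 485, 394 and 362 in sgNF2-1. The groups came close, at 33.3 ± 3.66 and 26.2 ± 1.21 CPM (n = 3 each, SD), without overlap. The log2 fold change was -0.34 (adjusted p = 0.016), and it was not called without sgCtrl replicate 3 (-0.25, adjusted p = 0.090) or sgNF2-1 replicate 2 (-0.32, adjusted p = 0.061). In its stretch of chromosome 17, from 35871491 to 36212878, the other members were CCL3L1 and CCL4L2, copies of CCL3 and CCL4 whose reads are hard to assign, with at most 11 and 10 counts.

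The neutrophil chemokines of chromosome 4, which carry the ELR motif, lie in a cluster of 6 genes of the symbol rule. Of these, 4 were members, and CXCL8 was the only called gene among them. CXCL8, or IL-8, fell from 24.0 ± 2.94 CPM in sgCtrl to 18.3 ± 1.08 CPM in sgNF2-1 (n = 3 each, SD), with 353 to 413 counts in sgCtrl and 264 to 338 in sgNF2-1. Its log2 fold change was -0.39 (adjusted p = 0.015), and the call was lost without sgCtrl replicate 3 (adjusted p = 0.084) or sgNF2-1 replicate 2 (0.071). CXCL1, CXCL2 and CXCL3 were not called. CXCL1 had 88 to 130 counts in sgCtrl and 63 to 94 in sgNF2-1 (log2 fold change -0.43, 95% interval -0.82 to -0.03, adjusted p = 0.09). CXCL2 had a log2 fold change of -0.18 (interval -0.46 to 0.09) and CXCL3 of 0.01 (-0.57 to 0.60). CXCL6, in the same cluster, was at 0 and CXCL5 had at most 4 counts. Their receptor genes CXCR1 and CXCR2 were at 0.

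CXCL12, the stromal chemokine that binds CXCR4, had 17, 28 and 26 counts in sgCtrl and 4, 8 and 1 in sgNF2-1. All sgNF2-1 libraries were lower, with a log2 fold change of -2.42 (95% interval -3.5 to -1.33, adjusted p = 0.00078). At a mean of 1.5 ± 0.364 CPM in sgCtrl and 0.272 ± 0.227 CPM in sgNF2-1 (n = 3 each, SD), it was among the lowest members tested, and it passed the filter through the sgCtrl libraries, so a difference was built into its being tested. CXCL16 was not called (-0.23, interval -0.65 to 0.19). Of the 16 CXCR and CCR genes, CCR10 alone reached 10 counts, with 41 to 51 in sgCtrl and 20 to 40 in sgNF2-1, and it was not called (log2 fold change -0.59, 95% interval -1.22 to 0.04, adjusted p = 0.14). It overlaps CNTNAP1 on the opposite strand, a gene with a mean of 1077 counts. CXCR4 had at most 2 counts and CCR2 at most 1.

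IL-17 family receptors were expressed, and none of the 4 was called. IL17RA, the shared chain, had 592 to 895 counts (log2 fold change -0.05, 95% interval -0.27 to 0.17), and IL17RC, its partner for IL-17A, had 659 to 777 (0.01, interval -0.22 to 0.24). For these genes the intervals leave room for small changes only. The less expressed IL17RB and IL17RE, at 13 to 28 and 13 to 27 counts, had wider intervals (-0.73 to 0.79 and -1.16 to 0.44). IL17D, the only ligand of the family among the members, rose from 8.17 ± 1.19 CPM in sgCtrl to 11.4 ± 1.67 CPM in sgNF2-1 (n = 3 each, SD), with a log2 fold change of 0.47 (adjusted p = 0.023). The call was lost without sgCtrl replicate 2 or 3 or sgNF2-1 replicate 2, at adjusted p-values of 0.080, 0.077 and 0.15. Among the remaining ligands, IL12A (log2 fold change 0.58, 95% interval -0.14 to 1.3), IL23A (-0.08, -0.79 to 0.62) and IL34 (-0.30, -0.63 to 0.02) were not called. IL12A and IL23A encode subunits that pair with the IL12B product, and IL12B had at most 2 counts.

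IL32 and IL4I1 carry interleukin names without being ligands of an interleukin receptor of this set. IL32, an intracellular and secreted proinflammatory protein, had 284, 340 and 341 counts in sgCtrl and 534, 518 and 537 in sgNF2-1. The groups were well apart, at 20.4 ± 2.24 and 33.9 ± 3.69 CPM (n = 3 each, SD), with a log2 fold change of 0.73 (SE 0.12, adjusted p = 2.8e-05). IL4I1, an amino acid oxidase, had 7 to 21 counts and was not called (-0.63, 95% interval -1.56 to 0.30), and it overlaps NUP62 on the same strand, with a mean of 1492 counts.

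The 8 members that were too low to be tested had at most 22 counts. CCL28, a mucosal chemokine, had 9, 8 and 6 counts in sgCtrl and 22, 11 and 9 in sgNF2-1. CXCL14 had 11, 5 and 9 against 1, 2 and 3. Like CXCL14, CCL3L1 and CCL4L2 reached 10 counts only in sgCtrl, IL1RN and IL16 did so only in sgNF2-1, as CCL28 did, and IL1RAPL1 and IL2RB in both groups. For each called or non-overlapping member above, the two-sided exact permutation test over the 6 libraries gives at best p = 0.10, the smallest value that 3 libraries against 3 allow.

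Levels of different genes were set side by side as FPKM, fragments scaled by gene length and library depth, as deposited by the authors. By the mean of all 6 libraries IL18 came first (50.0 FPKM), with 37.3 ± 3.40 in sgCtrl and 62.8 ± 2.97 in sgNF2-1 (n = 3 each, SD). IL6ST was next (45.3 FPKM), with 49.4 ± 6.70 in sgCtrl and 41.2 ± 2.77 in sgNF2-1. The order of these 2 genes was reversed between the groups, IL6ST leading in sgCtrl and IL18 in sgNF2-1. IL13RA1 and IL7R followed, with 26.8 ± 1.19 and 24.2 ± 2.48 FPKM in sgCtrl and 17.6 ± 0.956 and 19.2 ± 1.87 in sgNF2-1. IL13RA1 had the higher mean in sgCtrl and IL7R in sgNF2-1, and within each group their ranges of mean ± SD overlapped. CCL5 came next and had 20.9 ± 2.27 FPKM in sgCtrl, where CCL2 had 21.8 ± 3.65, within the spread of both. In sgNF2-1 the same 2 chemokines had 16.3 ± 0.737 and 6.34 ± 0.688 FPKM. Summed over the ligand genes, the mean level was 131.2 FPKM in sgCtrl and 145.9 in sgNF2-1, and summed over the receptor genes 162.6 and 120.9. Without IL18 the ligand sum was lower in sgNF2-1, at 83.1 FPKM against 93.9 in sgCtrl. Over all 6 libraries, IL18 held 36.1% of the ligand sum and IL6ST 32.0% of the receptor sum. The mean FPKM was higher in sgNF2-1 for 17 of the 52 members. All 24 called members had the same direction in FPKM as in CPM.

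**Figure D3:**
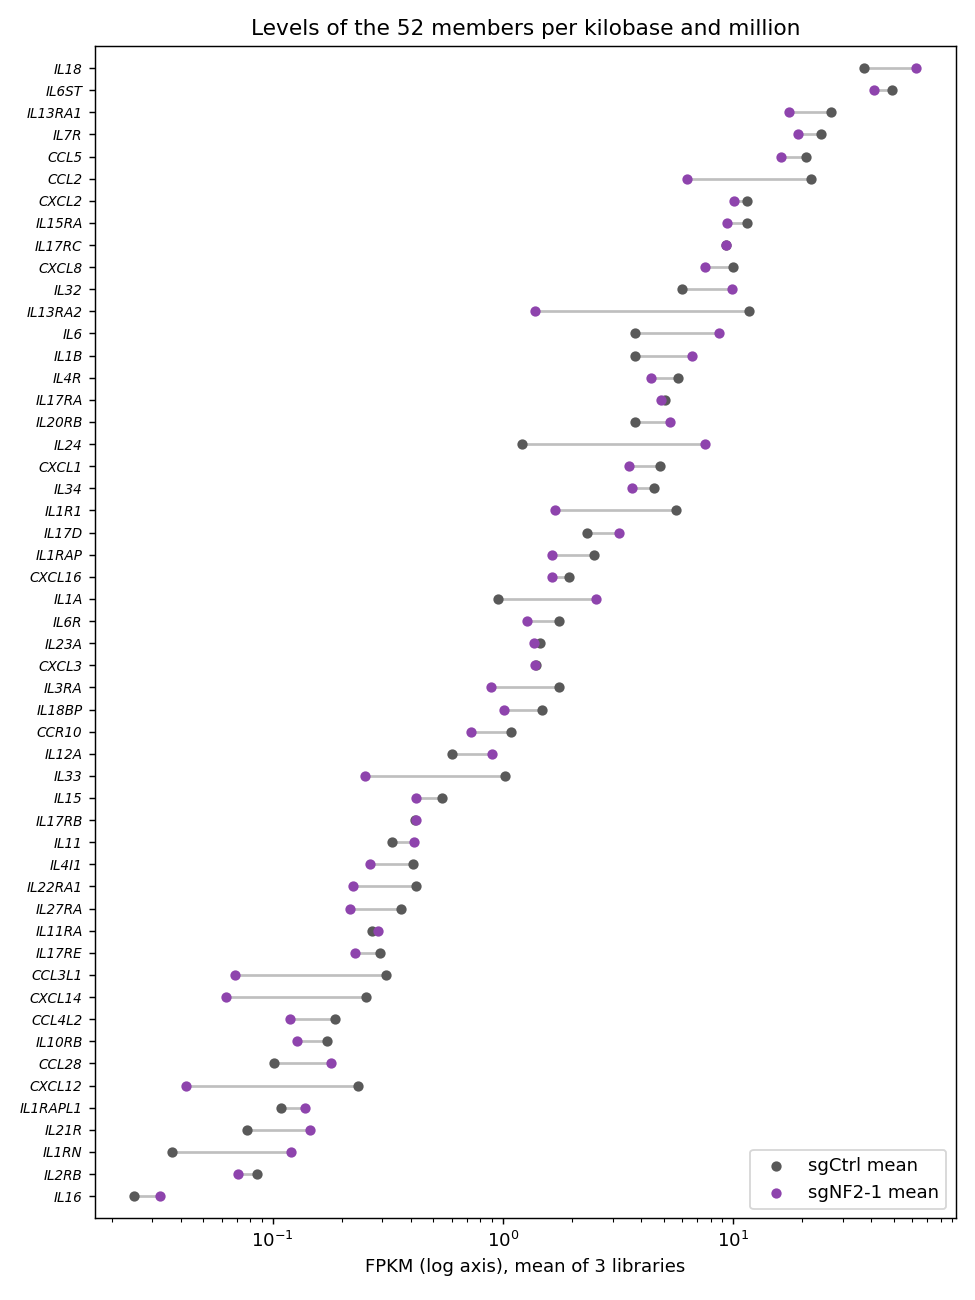
Mean FPKM of 3 libraries (x axis, log axis) in sgCtrl (grey) and sgNF2-1 (purple) for the 52 members (y axis, ordered by the mean of 6 libraries). IL18 and IL6ST lead the order, and the longest lines, between the groups' means, belong to members such as IL13RA2, IL24, CXCL12, CCL2 and IL33.

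The other genes of cytokine signalling were taken from a list of 94, of which 71 were tested. Of these, 16 were higher and 18 lower in sgNF2-1 (22.5% and 25.4%, beside 17.7% and 16.6% of all tested genes), with a median log2 fold change of -0.05. With the fold limit, 9 of the 71 were higher and 9 lower, where 8.42% and 9.32% of all tested genes passed. The SOCS genes, whose products switch off JAK and STAT signalling and are themselves targets of it, moved in both directions. SOCS2 had 22, 32 and 11 counts in sgCtrl and 110, 87 and 109 in sgNF2-1 (log2 fold change 2.24, SE 0.28, adjusted p = 7e-07). SOCS1 had 159, 160 and 150 against 63, 52 and 60 (-1.41, SE 0.18, adjusted p = 8.2e-07). SOCS3, an inhibitor that binds gp130, had 671, 742 and 661 against 452, 377 and 350 (-0.81, SE 0.10, adjusted p = 6.2e-07), so it was lower in the libraries in which IL6 was higher. SOCS5 was lower too (-0.57).

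Of the JAK kinases and STAT factors, STAT5A and STAT5B, neighbouring genes of very similar sequence, were higher (both 0.55) and STAT2 was lower (-0.43). STAT3, the main factor downstream of gp130, and STAT6, that of IL-4 and IL-13, were not called (-0.13 and -0.01). Among the NF-κB genes, the subunit genes RELB (0.96, SE 0.11, adjusted p = 1.4e-07), NFKB2 (0.62) and RELA (0.52) were higher, and of the inhibitor and coregulator genes, NFKBIA (-0.50) and BCL3 (-0.58) were lower and NFKBIE (0.42, adjusted p = 0.0016) was higher. Of this group of 17 genes, 5 were higher and 5 lower in all (29.4% each, beside 17.7% and 16.6% of all tested genes). In the IL-1 receptor pathway, IRAK4, the kinase nearest the receptor, was lower (-0.71, SE 0.16, adjusted p = 0.0015), IRAK1 was higher (0.38, adjusted p = 0.001), and the adaptor MYD88 was not called (0.07). CEBPD was lower (-0.52), while CEBPB, the C/EBP gene first described for IL6, was higher (0.30, adjusted p = 0.0059, and 0.051 without sgCtrl replicate 2). IRF1 was higher (0.63).

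Among the cytokines and receptors outside the symbol rule, LIF, another gp130 ligand, was higher (0.64, SE 0.10, adjusted p = 3e-05), as was the receptor gene CSF2RA (0.60). CSF2RA was the only 1 of 8 tested genes of the other cytokine receptors called higher, and the interferon receptor genes IFNAR1 (-0.37, adjusted p = 0.0022), IFNGR1 (-0.38, adjusted p = 0.0045) and IFNGR2 (-0.24, adjusted p = 0.049) were lower. The call of IFNGR2 was lost in 7 of 13 alternatives, among them DESeq2 (adjusted p = 0.053), and its log2 fold change was -0.16 (adjusted p = 0.21) without sgCtrl replicate 3. CSF1, the macrophage growth factor, was lower, with 8415, 8366 and 6751 counts in sgCtrl and 3979, 3765 and 3286 in sgNF2-1 (-1.09, SE 0.09, adjusted p = 4.5e-10). CCRL2, an atypical chemokine receptor, was called lower (-1.03, adjusted p = 0.045), though its groups overlapped at 24 to 37 and 10 to 26 counts. Its call was lost in DESeq2 (adjusted p = 0.061) and without sgCtrl replicate 2 or 3 or sgNF2-1 replicate 1 or 3 (0.11, 0.14, 0.22 and 0.15), and without sgNF2-1 replicate 2 the log2 fold change was -1.61. Of the other 12 genes in its group, which include the chemokines PF4, PPBP and CX3CL1, none was tested.

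**Figure D4:**
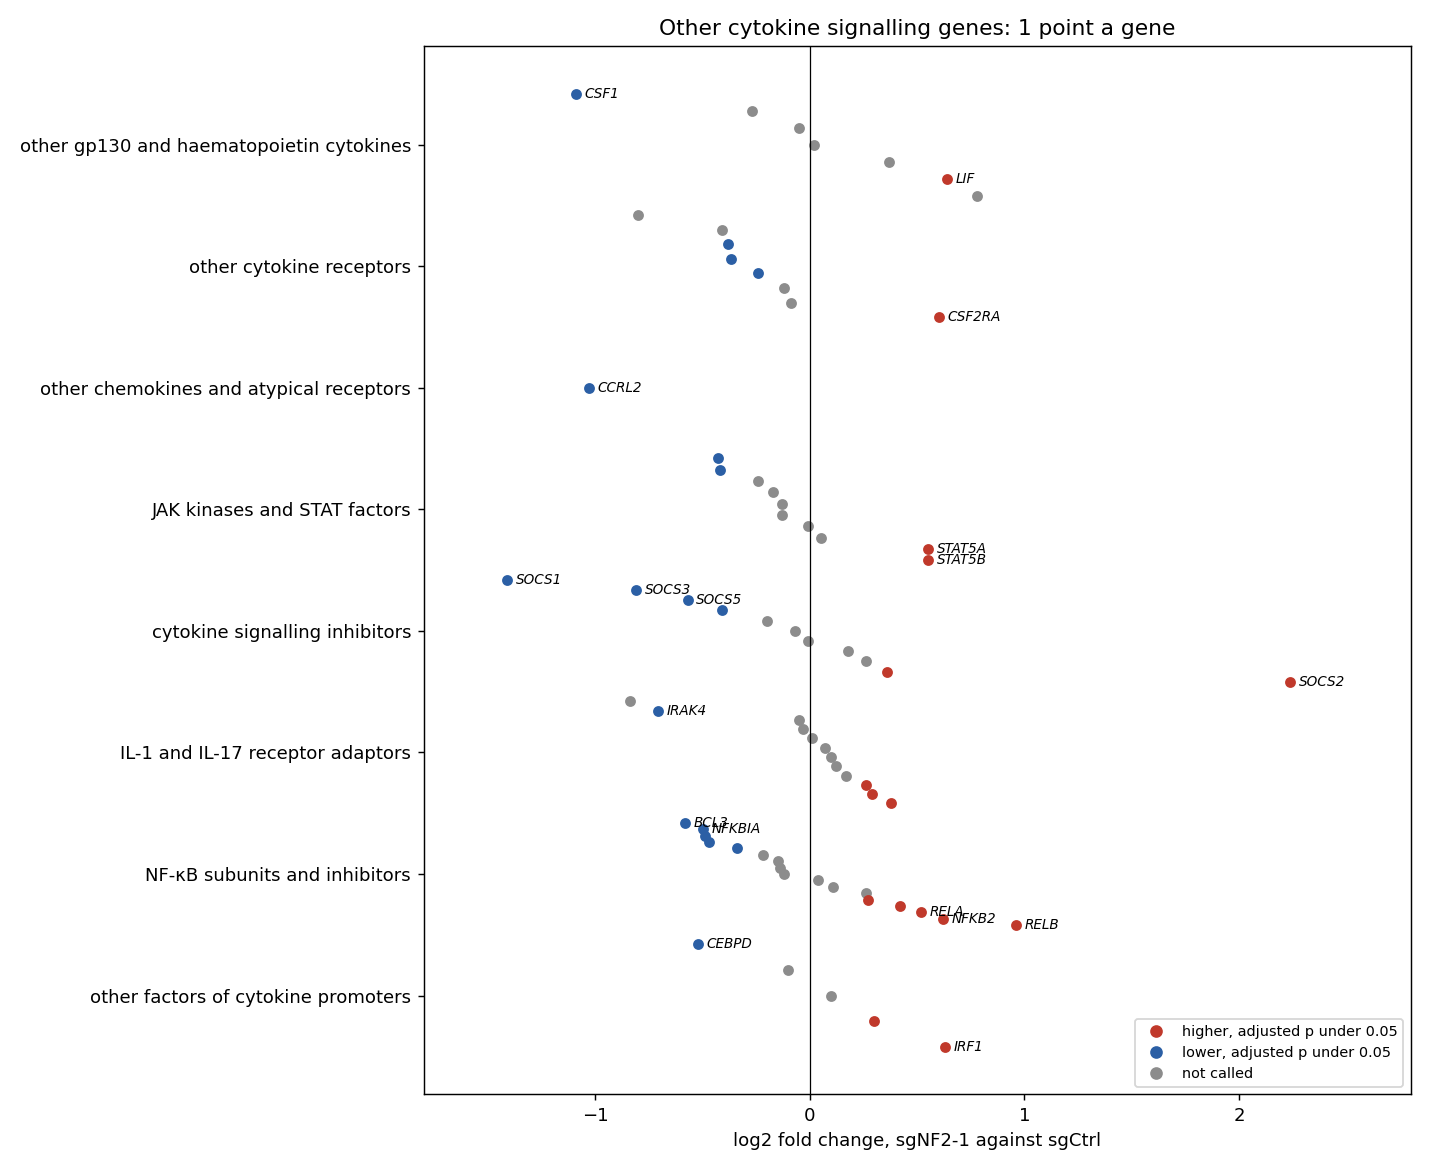
Log2 fold change, sgNF2-1 against sgCtrl (x axis), of the 71 tested genes of the cytokine signalling list, by group (y axis, with the genes of a group spread vertically by rank). Each point is a gene, red if higher, blue if lower and grey if not called, and names stand beside the 18 called genes beyond a log2 fold change of 0.5. SOCS2 at 2.24 and SOCS1 at -1.41 are at the ends.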

How the data were processed

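The submitters' processing notes name HISAT2, StringTie 1.3.3b and featureCounts 1.5.0-p3 and the build hg38. For each gene the authors deposited the count of its reads, unnormalized, and an FPKM value made from that count. The strand setting is not given in the sources used here. All 142 genes have the start and end of GENCODE 29. Groups came from the sample titles. Counts were filtered (filterByExpr, minimum count 10, minimum total 15), scaled by TMM and fitted with edgeR 4.0.16 (R 4.3.3) by the quasi-likelihood test with group as the only term, over all genes. P-values were adjusted by Benjamini-Hochberg, and a gene was called at an adjusted p under 0.05. A gene's FPKM served for levels only, with no test. Depth limits single counts near the 10-count limit. The procedure was tested on simulated counts. Alternatives were DESeq2 1.42.0, other scalings and filters, a replicate block and each library left out. Values of every library are given for members called with a log2 fold change beyond 0.5 and a mean of at least 1 CPM, and for the 5 highest by FPKM. Members and lists were chosen with earlier results of these data known. Some genes of the lists are not reported here.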

Additional observations from a re-analysis of the deposited data

How the results depend on the processing

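The number of members called higher, 8, was 7 or 8 under every alternative, with DESeq2, other scalings, other filters, protein-coding genes only and each library left out. The number called lower, 16, was 14 to 16 under those that kept all libraries and 11 to 14 with a library left out, fewest without sgCtrl replicate 3. With a fold limit of 0.5 in log2 it was 9, whether p was adjusted or not. For the signalling list of 94, the fold limit left 9 genes higher with either p, and 10 lower with the unadjusted p or 9 with the adjusted p, and leaving out a library gave 12 to 16 higher and 15 to 18 lower. Same-numbered libraries deviated from their group means with correlations of -0.032, 0.057 and 0.05, and differently numbered ones with -0.107 to 0.06. On the second principal component of log2 CPM (12.9% of the variance), replicate 3 lay at -25.7 in sgCtrl and -12.9 in sgNF2-1. The other libraries lay between 4.6 and 12.5. The titles do not say whether same-numbered libraries were handled together, and this was not tested. With the replicate block, 8 members were higher and 16 lower, and 18 signalling genes were higher and 18 lower, while the log2 fold change of NF2 was -0.70 (adjusted p = 2e-06). Over 19 named genes, 245 values under the alternatives held 0 reversals, 232 stayed on the same side of the threshold and 13 lost the call, each given with the gene. IL33, IL1A and CXCL12 had no value with at least 10 counts required in every library. As CPM in place of FPKM, 19 members had a higher mean in sgNF2-1. Low counts limit the members under about 30 counts, such as IL10RB, IL11 and IL22RA1, whose 95% intervals span over 1 log2 unit. The fit assumes equal spread in both groups. RNA levels give neither secretion nor receptor protein.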
